A study of Mus musculus with 3 samples.

Results

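Genes for 10 receptors of itch and of non-peptidergic nociceptors were followed in cultured mouse sensory neurons: Mrgprd, Mrgprx1, Mrgpra3, Mrgprb4, Mrgprb5, Il31ra, Osmr, Lpar3, Hrh1 and Htr1f. They were chosen by name, each is read by 1 probe set annotated to it alone, and all 10 were found among the 30142 named genes on the array. Dissociated dorsal root ganglion neurons came from male ICR mice, an outbred strain, aged 8 to 10 weeks, and RNA was taken after 72 hours in culture. The control cells were kept in DMEM with the B27 supplement. Another culture received this medium with 1 µg/ml recombinant SEMA3E, a secreted guidance protein of the semaphorin family, and the last received SEMA3E at that dose plus a SEMA3E-blocking IgG, also at 1 µg/ml. Each medium has 1 array, so no difference has a replicate, an error or a test, and precision is limited by there being only 3 arrays.

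Small-diameter sensory neurons fall into peptidergic and non-peptidergic classes, and the non-peptidergic ones carry most of the Mrgpr receptors. Mrgprd, the beta-alanine receptor, marks the large class of polymodal fibres of the skin, Mrgpra3, the chloroquine receptor, and Mrgprx1 (also called Mrgprc11), a receptor of pruritic peptides, mark itch neurons, and Mrgprb4 marks fibres that answer to stroking. A further class of itch neurons uses Il31ra and Osmr, which together form the interleukin 31 receptor, while Osmr also pairs with the shared chain Il6st to bind oncostatin M. Hrh1 is the Gq-coupled histamine receptor of histaminergic itch, Lpar3 a receptor for lysophosphatidic acid, and Htr1f a Gi-coupled serotonin receptor.

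Mrgprx1 and Mrgprb5 were the genes of the group furthest apart between the media, and they lie next to each other among the measured protein-coding Mrgpr genes of chromosome 7, followed by Mrgprb4. RefSeq sequences (GRCm38.p6) around the annotated starts, with 250 bases before and 50 after, were matched for 9 of the 10 genes. The windows of Mrgprb5 (chr7:48168936-48169235, minus strand) and Mrgprb4 (chr7:48199129-48199428, minus strand) are shown because these neighbours are alike in sequence but not in their measurements. They align without a gap and are 82.0% identical, with 54 differing bases, shown in capitals, and a longest identical run of 21 bases. Of the differing bases, 44 lie before the start and 10 after it, and both gene models begin at ATG, so the last 50 bases are coding sequence.
Mrgprb5: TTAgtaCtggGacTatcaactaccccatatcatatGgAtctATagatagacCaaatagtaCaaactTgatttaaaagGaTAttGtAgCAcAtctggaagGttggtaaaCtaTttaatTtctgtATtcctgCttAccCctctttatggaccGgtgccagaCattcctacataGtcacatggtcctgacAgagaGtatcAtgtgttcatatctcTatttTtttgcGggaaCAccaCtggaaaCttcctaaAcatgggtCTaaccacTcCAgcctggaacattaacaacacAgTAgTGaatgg
Mrgprb4: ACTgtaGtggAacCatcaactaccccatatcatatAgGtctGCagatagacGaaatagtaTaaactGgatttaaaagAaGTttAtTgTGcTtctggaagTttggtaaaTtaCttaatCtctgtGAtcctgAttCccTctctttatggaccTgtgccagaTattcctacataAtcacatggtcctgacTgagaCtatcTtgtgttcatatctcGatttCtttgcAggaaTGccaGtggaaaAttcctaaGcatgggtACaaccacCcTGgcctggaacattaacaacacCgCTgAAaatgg
The window of Mrgprx1 (chr7:48027548-48027847, minus strand), the gene furthest apart, is given for comparison, all in lower case because no base is marked.
Mrgprx1: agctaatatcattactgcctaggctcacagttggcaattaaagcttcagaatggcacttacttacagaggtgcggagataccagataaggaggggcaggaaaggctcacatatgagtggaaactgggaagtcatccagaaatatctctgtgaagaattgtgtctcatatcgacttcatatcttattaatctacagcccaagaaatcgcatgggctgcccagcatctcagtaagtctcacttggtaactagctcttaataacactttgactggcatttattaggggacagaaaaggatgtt
It was 47.8% identical to that of Mrgprb5 and 48.4% to that of Mrgprb4, against 44.8% between Mrgprb5 and Mrgprd. Among these pairs only the windows of Mrgprb5 and Mrgprb4 were close. The windows lie mostly before the gene models, so they do not show how alike the transcripts are. A probe set named for one Mrgpr gene may still read another, which was not tested. The sequences of the probes were not used here.

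Runx1 is the transcription factor that governs the Mrgpr programme in development, so the windows were searched on both strands for the RUNX words TGTGGT and TGCGGT. Mrgpra3 had no window and was not searched. Of the 9 genes, Hrh1 alone held one, in the windows of 2 of its 4 annotated starts, while 22.4% of all 32851 windows of this length do. The models of Mrgprb4 and Mrgprb5 begin at ATG, so their windows need not hold the start of transcription. The STAT word TTCNNNGAA, which reads the same on both strands, occurred in the window of Il31ra alone, against 8.30% of all windows. These are matches of letters in short windows and say nothing of binding.

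The cultures carried the RNA of sensory neurons together with that of other cells. All 10 pan-neuronal markers lay at or above the background floor, set by 492 vomeronasal receptor genes, which the ganglion is taken not to express, as the 95th percentile of their mean levels (43.7 intensity units, or 5.48 as log2 of the value plus 1). All 12 markers of non-peptidergic and itch neurons did so too, as did 17653 of all 30142 named genes. Among the 12 were P2rx3, the ATP-gated channel of non-peptidergic nociceptors, at 7048 units, and Gfra2, the neurturin receptor, at 255 units. Nearer to the floor were Nppb (81.4 units), Sst (78.1 units) and Agtr1a (62.0 units). Agtr1a lay below the 99th percentile of the vomeronasal receptor genes (65.8 units). Of 8 mast cell markers 7 lay below the floor and Gata2 at 54.3 units above it. The 6 measured glial, 4 measured fibroblast and 4 endothelial markers all lay at or above the floor. The endothelial ones lay near it, in control medium Kdr at 49.6 units, Pecam1 at 65.9, Cldn5 at 71.1 and Cdh5 at 89.2. Of 5 macrophage markers 4 lay at or above the floor, with the macrophage receptor gene Csf1r at 30.4 units below it. Of the glial markers, Kcnj10 held 399, 337 and 273 units in control, SEMA3E and IgG medium. Fabp7 held 3631, 3970 and 3631 units, and the other 4 were identical in the 3 arrays. The RNA is of the whole culture, so fewer cells of a type and less RNA per cell cannot be told apart.

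Of the 10 receptor genes, 8 had a mean at or above the floor, and Mrgprb4 and Il31ra did not. Of all 30142 named genes 17653 did, so passing this floor is common. Values were identical in all 3 arrays for 7 of the 10. This is the usual state of the deposited table, in which 72.3% of the probe sets hold the same value in every array to 7 decimals. Moreover, 60.9% of the 65956 probe sets shared all 3 values with at least 1 other probe set. Of the 7 identical receptor genes 5 did: Hrh1 with 29 others, Mrgprb4 with 17, Il31ra with 14, Lpar3 with 13 and Htr1f with 1. Equal values therefore cannot be read as equal amounts of RNA in the 3 cultures.

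**Figure D1:**
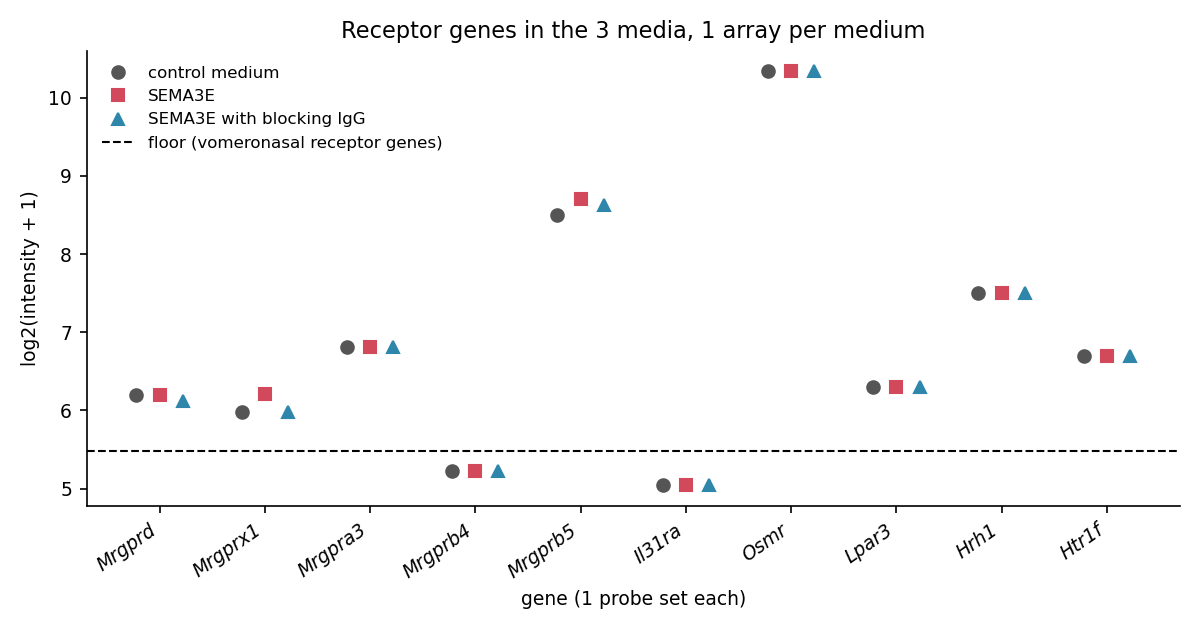
Level of each receptor gene, as log2(intensity + 1), in control medium (circles), with SEMA3E (squares) and with SEMA3E and blocking IgG (triangles), 1 array each, with the floor of 5.48 as a dashed line. Mrgprd, Mrgprx1 and Mrgprb5 differ between arrays, the other 7 genes lie flat, and Mrgprb4 and Il31ra are below the line; heights of different genes are not comparable because their probes differ.

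Among the Mrgpr receptors, Mrgprx1 was measured at 62.4 units in control medium, 73.0 with SEMA3E and 62.4 with SEMA3E and the IgG. The SEMA3E array alone was high, by 16.9% of the control intensity or 0.22 on the log2 scale, and the array with the IgG held exactly the control value. Mrgprx1 lay close to background, above the floor of 5.48 in its mean log2 level but level with the 99th percentile of the vomeronasal receptor genes, at 6.06 on that scale for both.

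Mrgprb5 stood at 361 units in control medium, 415 with SEMA3E and 393 with SEMA3E and the IgG. It was higher in both SEMA3E-containing media, by 15.1% with SEMA3E alone (log2 difference 0.20) and by 9.04% with the IgG added (0.12). With the IgG it lay 0.08 below SEMA3E alone on the log2 scale, between the other arrays. Unlike Mrgprx1, it was measured far above the floor.

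Mrgprd was measured at 72.2 units in control medium, 72.7 with SEMA3E and 68.6 with SEMA3E and the IgG. The first pair of arrays was 0.01 apart on the log2 scale, and the array with the IgG was the low one, 0.07 below control and 0.08 below SEMA3E alone. So Mrgprd followed neither Mrgprx1 nor Mrgprb5, whose control arrays were not above those with the IgG.

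Mrgpra3 held 111 units in all 3 arrays. Mrgprb4 held 36.3 units in all 3, below the floor, so no level can be given for it. Thus, of the neighbours with similar start windows, Mrgprb5 differed between the arrays and Mrgprb4, at background, did not.

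The cytokine receptor chains were flat. Osmr, the chain shared by the interleukin 31 and oncostatin M receptors, held 1292 units in each array, far above the floor. Il31ra, its partner, held 31.9 units in each, below the floor. Of the pair that forms the interleukin 31 receptor, the Osmr chain alone was detected above background. Osmr is also made by fibroblasts and other non-neuronal cells. All 4 measured fibroblast markers lay at or above the floor, as did all 6 measured glial markers. The part of any cell type in the value of Osmr was not tested. Of the fibroblast markers, Dcn (8988 units), Col1a1 (253 units) and Col3a1 (173 units) were identical in the 3 arrays. Lum held 512, 508 and 508 units in control, SEMA3E and IgG medium.

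The amine and lipid receptors were flat as well. Hrh1 held 180 units, Htr1f 103 units and Lpar3 77.9 units in each of the 3 arrays, all above the floor. These are the deposited values to 7 decimals, and those of each gene recur in at least 1 other probe set, as given above.

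Between SEMA3E and control medium, 3 of the 10 genes were higher (Mrgprx1, Mrgprb5 and Mrgprd), 0 lower and 7 identical. All 3 belong to the 8 at or above the floor. Over the 17653 genes at or above the floor, 18.6% differed in this comparison, 6.21% being higher and 12.3% lower. A difference of at least 0.1 on the log2 scale upward, as in Mrgprx1 and Mrgprb5, was found in 2.14% of these genes. None of the 10 receptor genes was 1.5-fold apart, against 0.170% of all genes at or above the floor. The median difference was 0 for the 8 receptor genes and 0 for all genes.

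Vomeronasal receptor genes give the spread at probe sets whose transcripts the ganglion is taken to lack. Of all 492, 75 were higher with SEMA3E (15.2%) and 13 lower (2.64%), and 30 were higher by at least 0.1 (6.10%). Their differences ran from -0.28 to 0.39, and 12 of them were at least as far apart, in either direction, as Mrgprx1. With the IgG against SEMA3E alone 7 were higher (1.42%) and 77 lower (15.7%). Only 17.9% of the 492 differed between SEMA3E and control, and 17.1% between the IgG and SEMA3E alone. Among those that differed, the SEMA3E array was thus mostly the high one. It was also the high one for Mrgprx1, Mrgprb5 and, by 0.01 over control on the log2 scale, Mrgprd. The part of this lean in the values of the receptor genes was not tested.

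**Figure D2:**
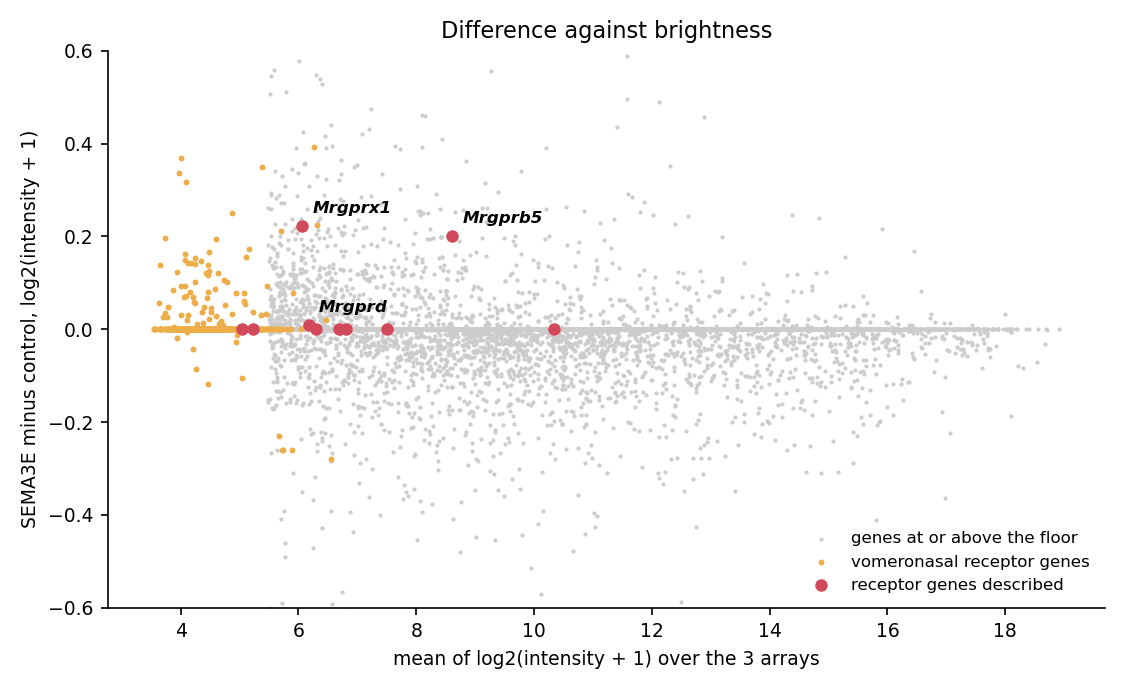
Difference between SEMA3E and control medium in log2(intensity + 1) against mean log2 level over the 3 arrays, for genes at or above the floor (grey), all 492 vomeronasal receptor genes (orange) and the 10 receptor genes (red). Mrgprx1 (0.22) lies at the brightness of the upper vomeronasal genes, Mrgprb5 (0.20) well to their right, and 25 genes lie outside the plotted range of -0.6 to 0.6.

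With the IgG against SEMA3E alone, Mrgprx1 (-0.22), Mrgprd (-0.08) and Mrgprb5 (-0.08) were lower, 0 receptor genes were higher and 7 were identical. Among all genes at or above the floor 20.5% differed, 10.2% higher and 10.3% lower, and 3.22% were lower by at least 0.1, as Mrgprx1 was. This comparison shares the SEMA3E array with the first, so the same 3 genes higher there and lower here are not independent observations. None of the 10 was 1.5-fold apart, against 0.136% of all genes.

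With SEMA3E and the IgG against control, Mrgprb5 was higher (0.12), Mrgprd lower (-0.07) and the other 8 identical, Mrgprx1 among them. Of all genes at or above the floor 7.59% were higher and 11.4% lower, 19.0% in total, and 3.00% were higher by at least 0.1, as Mrgprb5 was. None of the 10 was 1.5-fold apart, against 0.204% of all genes. Over the 3 comparisons together, 3 of the 8 receptor genes at or above the floor differed between some pair of arrays, against 25.1% of all genes there and 23.4% of the vomeronasal receptor genes.

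How often values differed varied with brightness. The genes at or above the floor were put into 5 equal bins by mean level. In the dimmest bin, which holds Mrgprd and Mrgprx1, 16.1% of the genes differed between some pair of arrays. In the next, with Mrgpra3, Lpar3 and Htr1f, 16.1% did, in that of Hrh1 19.3%, in that of Mrgprb5 and Osmr 26.3%, and in the brightest, which holds none of the receptor genes, 47.8%. Upward differences of at least 0.1 with SEMA3E were found in 2.83% of the bin of Mrgprx1 and 1.39% of that of Mrgprb5, and downward ones in 1.81% and 3.82%. Large differences thus leaned upward at the brightness of Mrgprx1, as among the vomeronasal genes, and downward at that of Mrgprb5.

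The rest of the Mrgpr family was examined in chromosomal order. On chromosome 7, 19 protein-coding Mrgpr genes were measured, 10 at or above the floor. Of the 19, 6 differed between some pair of arrays, 4 of them at or above the floor, where 25.1% of all genes did. Mrgprg, an orphan receptor gene distant from the cluster of Mrgprx1, stood at 88.0 units in control medium and with SEMA3E and at 74.7 with the IgG added, a log2 difference of -0.23 from either. Mrgprb2, the receptor of mast cells for basic secretagogues, held 10.3, 11.5 and 9.89 units in control, SEMA3E and IgG medium, all below the floor. Mrgprb3, named after its values were seen, held 39.3, 45.6 and 39.7 units, so that its mean lay below the floor and its SEMA3E value slightly above it. In Mrgprb2 and Mrgprb3 the SEMA3E array was the high one, as in Mrgprx1 and Mrgprb5. Mrgpra3 and its neighbours Mrgpra1, Mrgpra2b and Mrgpra4 were identical in the 3 arrays.

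**Figure D3:**
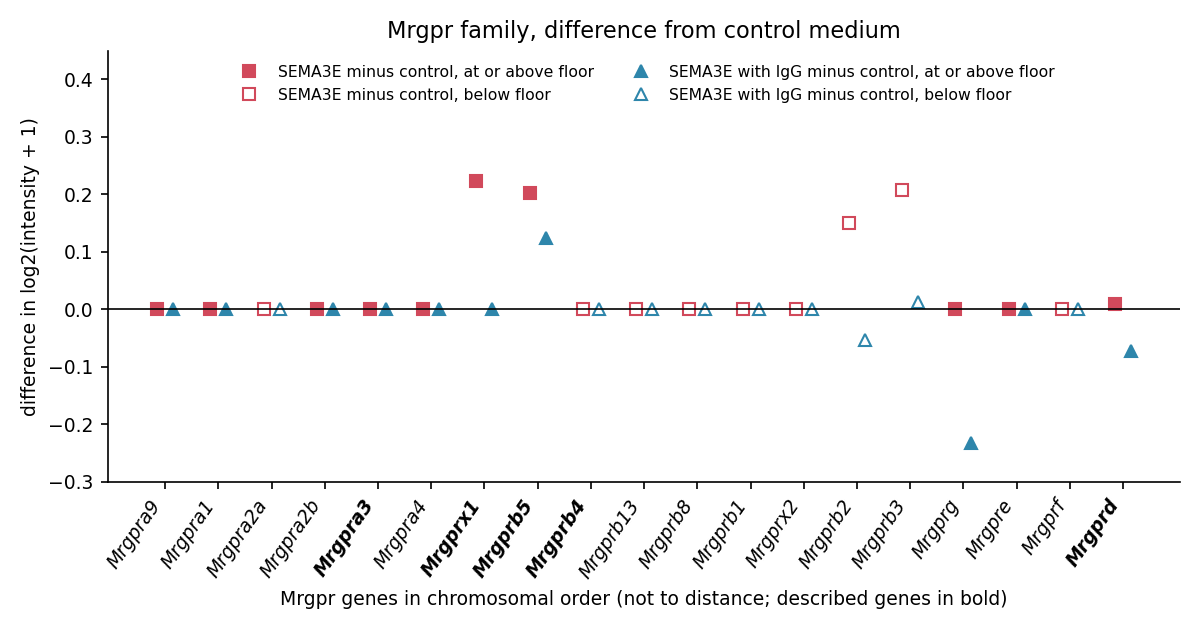
Difference from control medium in log2(intensity + 1) for 19 Mrgpr genes of chromosome 7 in their order along it, with SEMA3E (squares) and with SEMA3E and IgG (triangles); open symbols are genes whose mean is below the floor and the genes described are in bold. Mrgprx1 (0.22) and Mrgprb5 (0.20) stand beside each other and above 0 with SEMA3E, so do Mrgprb2 (0.15) and Mrgprb3 (0.21), whose means are below the floor, and Mrgprg lies at -0.23 with the IgG.

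Genes whose differences from control in the 2 SEMA3E-containing media were nearest to those of Mrgprx1 were Vmn1r208 (0.22 and 0), a vomeronasal receptor gene, Ighv3-1, an immunoglobulin segment, the predicted genes Gm24258 and Gm25725, and Bsx, a homeobox gene. The likeness is a Euclidean distance over those 2 log2 differences, taken from 3 arrays, and it lay between 0.0016 and 0.0048. For Mrgprb5 the nearest were the predicted genes Gm23310, Gm24862 and Gm25461, which hold the same values as each other, Gm25724, and the macrophage lysozyme gene Lyz2, at distances from 0.0029 to 0.0156. Lyz2 stood at 2171 units in control medium, 2480 with SEMA3E and 2348 with the IgG. The summed intensity of the 5 macrophage markers, in which Lyz2 is the brightest gene, was 3762 in control, 4015 with SEMA3E and 3934 with the IgG, the order of Mrgprb5. Lyz2 alone gave this order: without it the sum of the other 4 was 1591, 1535 and 1587, lowest with SEMA3E. Cd68 was lower with SEMA3E (1087, 1031 and 1087 units), Adgre1 lower with the IgG (168, 168 and 164 units), and Aif1 and Csf1r were identical in the 3 arrays. The part of macrophage RNA in the value of Mrgprb5 was not tested.

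Of 114 other genes of itch and nociceptor signalling, 107 were measured and 73 lay at or above the floor. Between SEMA3E and control 3 of the 73 were higher, 9 lower and 61 identical, so 16.4% differed against 18.6% of all genes. With the IgG against SEMA3E alone 7 were higher and 2 lower, so 12.3% differed against 20.5% of all genes. With the IgG against control 3 were higher and 5 lower, so 11.0% differed against 19.0%. None was 1.5-fold apart in any of these, and the largest difference was that of Mrgprg.

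In interleukin 31 and oncostatin M signalling, 2 of 11 genes at or above the floor were lower with SEMA3E than in control medium and 9 identical. Of all genes there 12.3% were lower. Lifr, the leukaemia inhibitory factor receptor, stood at 4360, 4116 and 4360 units in control, SEMA3E and IgG medium, a log2 difference of -0.08 with SEMA3E. Il6st, the signalling chain gp130, held 19379, 18986 and 19528 units, -0.03 with SEMA3E. The kinase gene Jak1 (3488 units) and the transcription factor gene Stat3 (2735 units) were identical in the 3 arrays. The ligand genes Il31 (17.8 units) and Osm (20.3 units) and the feedback inhibitor gene Socs3 (17.4 units) lay below the floor.

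All 13 other histamine, serotonin and lysophosphatidic acid genes at or above the floor were identical in the 3 arrays, among them the receptor gene Lpar1 at 101 units. Of all genes at or above the floor, 25.1% differed between some pair of arrays. The receptor genes Hrh2 (28.6 units) and Htr7 (34.7 units) lay below the floor. Hence the deposited values of the receptor classes of Hrh1, Htr1f and Lpar3 were flat, where measured. As above, equal values cannot be read as equal amounts of RNA. Of 11 other itch receptors at or above the floor, 2 were higher in both SEMA3E-containing media and 9 identical. Against control, 6.21% of all genes there were higher with SEMA3E and 7.59% with the IgG added. The 2 were Tlr7, an RNA sensor, at 74.4 units in control and 80.3 in the other media (log2 difference 0.11), and Ednrb, the endothelin B receptor, at 0.03. Cysltr2, a leukotriene receptor of itch neurons, held 55.6 units in each array.

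Below the receptors, 5 of 19 transduction genes at or above the floor were lower with SEMA3E than in control medium and 14 identical. Among all genes at or above the floor 12.3% were lower. The 5 were Gnai2 (-0.06), a Gi subunit, Pirt (-0.05), a regulator of TRPV1, Scn9a (-0.03), Gnai1 (-0.01) and Prkcd (-0.01), of which all but Gnai2 were named after their values were seen. Gnai2, Pirt and Scn9a lie in the brightest bin, in which 28.6% of genes were lower. The itch channel genes Trpa1 (72.9 units) and Trpv1 (74.8 units) held identical values in the 3 arrays. So did Plcb3 (437 units), the phospholipase below Gq-coupled receptors. The values of Trpv1 recur in 79 other probe sets and those of Trpa1 in 12. Here too, equal values cannot be read as equal amounts of RNA.

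Among 12 markers of the neurons that carry these receptors, Nts, the neurotensin gene, was higher with SEMA3E (0.08), Prkcq, a protein kinase C gene, lower (-0.10), and Ret, the receptor chain for GDNF ligands, lower (-0.09). The other 9 were identical, including Nppb (81.4 units) and Sst (78.1 units), peptides of itch neurons, Gfra2 and P2rx3. Runx1 held 324 units in each array. By contrast 6 of 10 pan-neuronal markers were lower with SEMA3E and 0 higher, where 12.3% of all genes at or above the floor were lower. Of the 10 markers 8 lie in the brightest bin, in which 28.6% of genes were lower and 6.54% higher. Of these 8, Tubb3, Snap25, Nefl and Avil were lower, and the other lower markers, Rbfox3 and Nefm, are dimmer. With the IgG against control 6 of the 10 were lower too, with Elavl4 in place of Avil. The summed intensity of the 10 markers was 370620 in control, 364666 with SEMA3E and 365167 with the IgG. The part of this in the receptor genes was not tested.

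**Figure D4:**
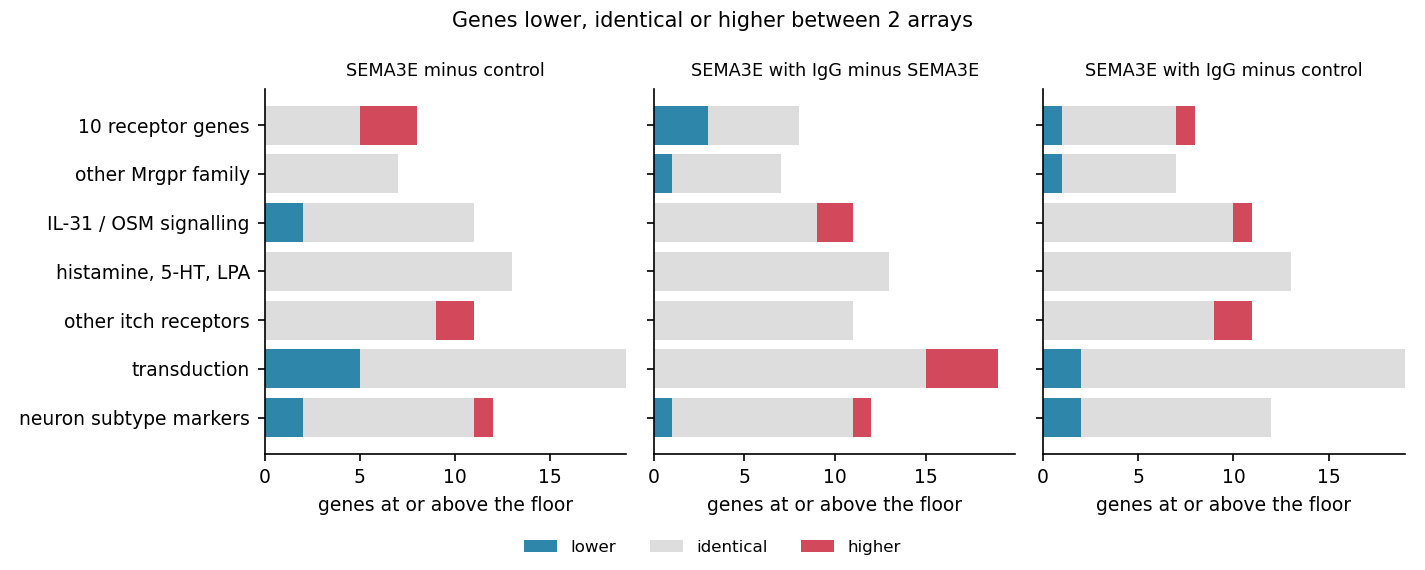
Number of genes at or above the floor that were lower (blue), identical (grey) or higher (red) in each comparison, for the receptor genes (8 of the 10) and 6 lists of related genes. With SEMA3E against control the receptor genes have 3 higher and 0 lower, transduction genes 0 higher and 5 lower, and histamine, serotonin and lysophosphatidic acid genes are all identical. Over all genes at or above the floor 6.21% were higher and 12.3% lower in that comparison.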

How the data were processed

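Total RNA (TRIzol, SV Total RNA columns) was labelled with the GeneChip WT Pico kit, per the labels' protocols. Per the submitters' processing notes, the authors made the deposited intensity values with Affymetrix Expression Console. Its version, how probes were summarised and arrays normalized, and the build were not given in the sources used here. The values are on a linear scale, so log2(value + 1) was used and every difference is between 2 arrays, without a test.

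Of 65956 probe sets 30604 had a single symbol, 2146 several and 33206 none, and 827 symbols were updated by gene number through a RefSeq table (GRCm38.p6, used for names, gene order and sequences). For 355 of 30142 genes with several probe sets the brightest was kept. The 10 receptor genes and the gene lists were chosen with earlier results of these data known. Named were all 10, a fixed set of pathway genes, and for receptor genes at least 0.1 apart the 5 nearest in pattern. In each list of itch and nociceptor genes, up to 6 genes at or above the floor furthest apart by at least 0.05 were named. The lists of pan-neuronal markers and of markers of other cells were not named by this rule. Genes from these marker lists, and others such as Runx1, Il31 and Osm, were named after their values were seen. The counting was tested on simulated data. Python 3.11.15, numpy 2.4.6, pandas 2.3.3, statsmodels 0.14.6 and matplotlib 3.10.9 were used.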

Additional observations from a re-analysis of the deposited data

How the results depend on the processing

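Directions of the receptor genes that differ in the deposited values held under an offset of 16 in place of 1, centring on the median, loess, quantile normalization and the mean of all probe sets, in each of the 3 comparisons. Some of this was fixed in advance. A change of offset cannot turn a direction, and with 1 probe set per receptor gene the mean of all probe sets returns the same values. Loess left the differences of Mrgprd, Mrgprx1 and Mrgprb5 as reported. All 150 recomputed differences stayed within 0.1 of the reported ones, and 0 genes passed 1.5-fold under any of these settings or with values below the floor set to it. Centring and quantile normalization shift identical values. Between SEMA3E and control, the count of receptor genes that differ therefore rose from 3 to 10 under each of them. Loess left this count at 3. It rose from 3 to 10 under quantile normalization between IgG and SEMA3E, and from 2 to 10 under centring and to 8 under quantile normalization between IgG and control, where loess gave 3 through Osmr (-0.0022). The shift of identical genes was at most 0.02 in size. With the 99th percentile of the vomeronasal genes as floor 7 receptor genes lay at or above it, without Mrgprx1, whose mean log2 level equals that floor to 2 decimals (6.06), with olfactory receptor genes 8, and with the vomeronasal median all 10. No paired analysis was possible because each medium has 1 array, and for the same reason no array could be left out.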
